A study of Mus musculus with 72 samples.

Results

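Marker genes of the main neuron types of the cerebellum, Purkinje cells and granule cells, were examined in mice lacking Gnb5. The 10 genes were taken by name and matched to the count rows by Ensembl identifier, 10 of 53715 gene rows. Pcp2, Calb1, Car8 and Ppp1r17 are markers of Purkinje cells. Cbln1, Cbln3, Zic1 and Neurod1 are markers of granule cells, and En1 and En2 are Engrailed genes, which pattern the midbrain and the cerebellum in the embryo. The libraries were bulk RNA-seq of whole cerebellum (Cb), of the hippocampi of both hemispheres (Hc) and of whole cerebral cortex (Co). They came from 6 Gnb5-/- and 6 Gnb5+/+ mice, all males of 18 weeks, and each mouse gave 1 library per region, 36 libraries in all. Gnb5 encodes an atypical G protein beta subunit that pairs with RGS proteins of the R7 family. In the knockout its exon 3 was deleted in the germline on an inbred C57BL/6J background, and the line was re-derived from frozen sperm. The atria and ventricles of the same study, which include Gnb5+/- mice, were used only for background levels.

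Purkinje cells are large GABAergic neurons and the sole output of the cerebellar cortex. Granule cells are small glutamatergic neurons, the most numerous neurons of the brain, whose parallel fibres synapse on Purkinje cell dendrites. That synapse is held together by cerebellins, which granule cells secrete and which bridge the parallel fibre to the Purkinje cell. Bulk RNA-seq measures the level of a transcript in the whole tissue, so fewer cells of a type and less RNA per cell cannot be told apart.

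Levels are given as read counts scaled to library size (CPM), scaled by TMM factors within each tissue. Reads on genes ranged from 37139723 to 47114533 in the 12 cerebellar libraries. Gnb5, which checks the genotype labels, ranged from 137 to 161 CPM in Gnb5+/+ and from 19.3 to 22.7 CPM in Gnb5-/- cerebellum, so the groups were apart. No pair of replicates agreed within sampling noise. A single cerebellar library stood apart from the rest, that of Gnb5-/- mouse 12, and 3 cortical libraries of Gnb5-/- mice (mice 1, 3 and 14) carried unusual levels of these genes. The fold changes of the 10 genes within cerebellum are given with and without mouse 12, and the counts of genes called in cortex, and against cortex, with and without these cortical libraries.

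The 5 genes with a promoter window in the RefSeq table of GRCm38.p6 were Pcp2, Cbln3, Zic1, En1 and Neurod1. The windows of Pcp2 and Cbln3 are shown because these genes had the largest ratio of cerebellar to forebrain level of the 10. Each runs from 250 bases before to 50 bases after an annotated transcript start, on the minus strand, and capitals mark motif matches.
Pcp2, chr8:3625498-3625797: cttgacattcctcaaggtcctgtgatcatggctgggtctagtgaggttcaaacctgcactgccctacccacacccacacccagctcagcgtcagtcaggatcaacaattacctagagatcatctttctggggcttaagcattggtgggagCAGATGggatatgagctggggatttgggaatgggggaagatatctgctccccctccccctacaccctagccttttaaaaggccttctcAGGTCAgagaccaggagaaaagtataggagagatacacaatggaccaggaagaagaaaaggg
Cbln3, chr14:55884207-55884506: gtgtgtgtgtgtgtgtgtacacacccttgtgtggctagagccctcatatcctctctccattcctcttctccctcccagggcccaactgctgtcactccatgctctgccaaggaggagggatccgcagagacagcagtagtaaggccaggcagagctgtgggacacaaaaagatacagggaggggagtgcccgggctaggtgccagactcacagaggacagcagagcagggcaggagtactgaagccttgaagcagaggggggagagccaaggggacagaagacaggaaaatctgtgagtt
Motifs searched on both strands were AGGTCA, the core bound by the orphan nuclear receptor ROR alpha, TAATTA, a homeodomain core bound by Engrailed proteins, CAGATG, an E-box of the kind bound by Neurod1, and CAGCAGG, a core bound by Zic proteins. TAATTA reads the same on both strands. The Pcp2 window shown is the one farthest upstream of 4 in the table. In it AGGTCA began 12 bases and CAGATG began 100 bases before the start, both in the direction of the gene. The Cbln3 window held none of the 4 motifs. Over 32544 distinct windows, AGGTCA was found in 16.2%, CAGATG in 17.1%, CAGCAGG in 10.5% and TAATTA in 5.29%. The matches describe these letters only, and those marked do not overlap.

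All 10 genes were higher in Gnb5+/+ cerebellum than in either forebrain region. The difference passed the threshold for 10 of 10 against hippocampus and 10 of 10 against cortex (edgeR quasi-likelihood test with the mouse as a block, Benjamini-Hochberg adjusted p under 0.05). Among all 18577 genes tested, 39.6% were higher in cerebellum than in hippocampus and 39.2% were higher than in cortex. The log2 fold changes ranged from 2.91 to 11.06 against hippocampus and from 2.89 to 11.08 against cortex. The labelled tissue thus carried its markers, by very different margins.

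**Figure D1:**
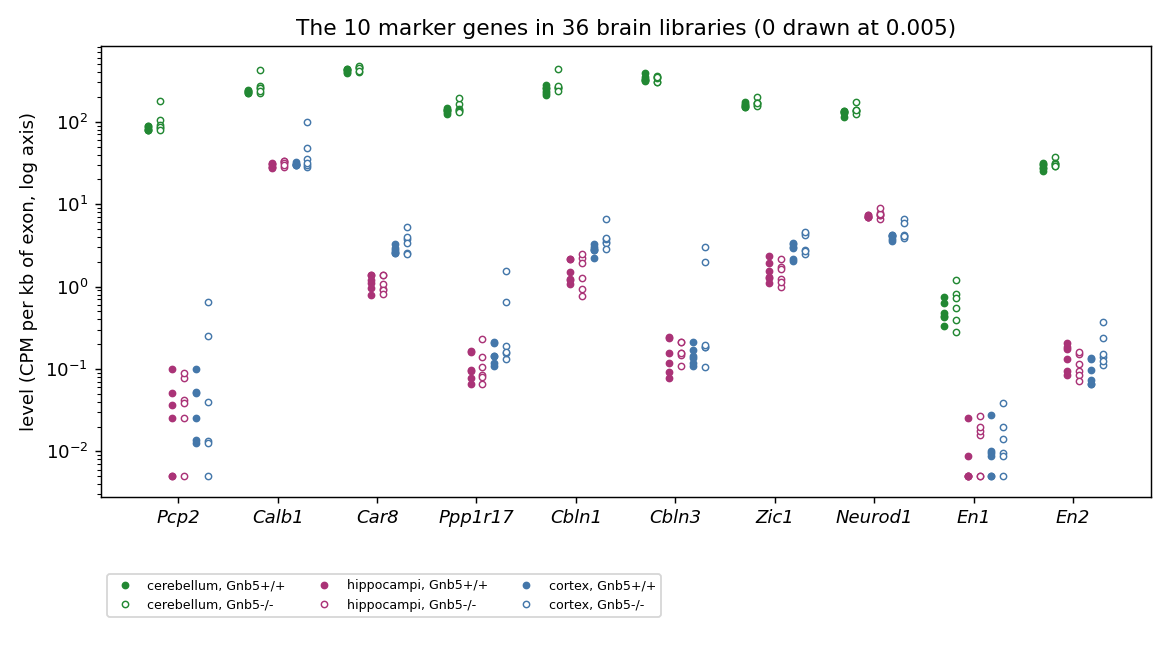
Level of each of the 10 genes in the 36 brain libraries, in CPM per kb of annotated exon on a log axis. Filled points are Gnb5+/+ and open points Gnb5-/- mice. Cerebellar levels of Car8 in Gnb5+/+ mice lie between 396 and 441 CPM per kb, those of En1 between 0.330 and 0.749, and values of 0 are drawn at the bottom.

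Per kilobase of annotated exon, Car8 had the highest mean level in Gnb5+/+ cerebellum, 420 ± 19.6 CPM per kb (SD, n = 6). Cbln3 followed at 338 ± 29.8, then Cbln1 at 243 ± 23.9 and Calb1 at 233 ± 6.85. The values of Cbln1 and Calb1 overlapped between libraries. Zic1 had 158 ± 8.34, Ppp1r17 had 136 ± 7.34 and Neurod1 had 129 ± 7.55 CPM per kb, and the last pair overlapped. Pcp2 had 83.5 ± 4.30 and En2 had 28.6 ± 2.54 CPM per kb. En1 was the lowest at 0.508 ± 0.152 CPM per kb. The ranges of all other neighbours in this order were apart. Exons of all isoforms were joined for the length, and for Pcp2 this gave 1828 bases against 470 in its principal transcript, so its value per kilobase depends on which length is used.

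Pcp2 (Purkinje cell protein 2, also called L7) modulates G proteins of the Gi and Go class and is a classical Purkinje cell marker. It lies on chr8:3623371-3625545 (ENSMUSG00000004630) of GRCm38 on the minus strand, and its exons overlap those of Pet100 on the other strand. In Gnb5+/+ cerebellum its level was 144 CPM at the lowest, 151 at the median and 163 at the highest. The 6 hippocampal libraries of the same mice held 16 Pcp2 counts together, with 2 libraries at 0, and the 6 cortical ones held 19.

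Gnb5-/- cerebellum had 143 CPM of Pcp2 at the lowest, 164 at the median and 322 at the highest. The highest was mouse 12, and the next, mouse 10, was at 191 CPM. The groups overlapped, and 4 of 6 Gnb5-/- mice were above the Gnb5+/+ mean. For Pcp2 the log2 fold change came to 0.31 (SE 0.17, adjusted p = 0.58, edgeR). Without mouse 12 it was 0.10 (SE 0.063, adjusted p = 0.58), with a 95% interval from a 2.73% decrease to a 17.4% increase.

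Calb1 encodes calbindin, a calcium buffer of Purkinje cells that other neurons of hippocampus and cortex also use. It lies on chr4:15881264-15908064 (ENSMUSG00000028222) on the plus strand. Its level in Gnb5+/+ cerebellum ran from 1093 to 1174 CPM with a median of 1135, the smallest relative spread of the 10 genes (coefficient of variation 2.93%). Hippocampus had 142 ± 7.36 and cortex 148 ± 5.08 CPM (SD, n = 6), the smallest gap to forebrain of the 10. In Gnb5-/- cerebellum it ran from 1085 to 2052 CPM with a median of 1246. Mouse 12 was again the highest, followed by 1333 CPM, and 4 of 6 mice were above every Gnb5+/+ mouse while 1 was below all of them. For Calb1 the log2 fold change came to 0.25 (SE 0.14, adjusted p = 0.58, edgeR), and the exact permutation test over mice gave p = 0.0628, 2-sided, the lowest of the 10. Leaving out mouse 12 gave 0.10 (SE 0.050, adjusted p = 0.47), with an interval from -0.629% to 15.4%.

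Car8 encodes a carbonic anhydrase-related protein that binds the IP3 receptor of Purkinje cells and lowers its affinity for IP3. It lies on chr4:8143362-8239041 (ENSMUSG00000041261) on the minus strand. Gnb5+/+ cerebellum ran from 1524 to 1701 CPM with a median of 1626, and Gnb5-/- cerebellum from 1535 to 1807 CPM with a median of 1719. Mouse 12, at 1710 CPM, stood among the others here. For Car8 the log2 fold change came to 0.06 (SE 0.067, adjusted p = 0.67, edgeR) with mouse 12 and 0.06 (SE 0.050) without it. Hippocampus had 4.39 ± 0.914 and cortex 10.7 ± 1.04 CPM (SD, n = 6).

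Ppp1r17, known as G-substrate, is phosphorylated by the cGMP-dependent kinase of Purkinje cells and then inhibits protein phosphatases. It lies on chr6:56017497-56032689 (ENSMUSG00000002930) on the plus strand. The level was 220 to 256 CPM, median 242, in Gnb5+/+ cerebellum and 234 to 344 CPM, median 248, in Gnb5-/- cerebellum. Mouse 12 had the 344 CPM and the next library 289. For Ppp1r17 the log2 fold change came to 0.15 (SE 0.097, adjusted p = 0.58, edgeR), and 0.07 (SE 0.056) without mouse 12. In Gnb5+/+ hippocampus and cortex the 6 libraries held 48 and 68 counts.

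Cbln1 encodes cerebellin 1, the bridging protein of the parallel fibre synapse. It lies on chr8:87468405-87472609 (ENSMUSG00000031654) on the minus strand. Gnb5+/+ cerebellum ran from 644 to 838 CPM with a median of 740, and Gnb5-/- cerebellum from 713 to 1340 with a median of 788. Mouse 12 gave the highest value and 813 CPM was the next, so the remaining 5 lay within the range of Gnb5+/+ mice. For Cbln1 the log2 fold change came to 0.23 (SE 0.14, adjusted p = 0.58, edgeR), and 0.07 (SE 0.063) without mouse 12.

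Cbln3 encodes cerebellin 3, which depends on Cbln1 for its secretion. It lies on chr14:55878913-55884392 (ENSMUSG00000040380) on the minus strand. Its level was 1529 to 1907 CPM, median 1583, in Gnb5+/+ cerebellum and 1463 to 1740 CPM, median 1677, in Gnb5-/- cerebellum. Mouse 12 gave the lowest of all 12 values. For Cbln3 the log2 fold change came to -0.02 (SE 0.080, adjusted p = 0.92, edgeR) and 0.01 (SE 0.062) without mouse 12. Its mean CPM in Gnb5+/+ cerebellum was 2188 times that in hippocampus and 2268 times that in cortex.

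Zic1 encodes a zinc finger transcription factor of granule cells and their precursors. It lies on chr9:91358058-91365810 (ENSMUSG00000032368) on the minus strand, 16.01 Mb beyond Gnb5 on the same chromosome, the only one of the 10 there, and its exons overlap those of Zic4 on the other strand. Gnb5+/+ cerebellum ran from 854 to 980 CPM with a median of 894, and Gnb5-/- cerebellum from 890 to 1123 with a median of 958. Mouse 12 was the highest, with the next at 973. For Zic1 the log2 fold change came to 0.10 (SE 0.072, adjusted p = 0.59, edgeR), and 0.06 (SE 0.044) without mouse 12.

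Neurod1 encodes a basic helix-loop-helix factor needed for granule cells to form and survive. It lies on chr2:79452521-79456751 (ENSMUSG00000034701) on the minus strand. Its exons overlap those of Cerkl on the same strand and of Gm26755 on the other, so its counts may depend on how reads in the overlap were assigned. The level was 313 to 370 CPM, median 355, in Gnb5+/+ cerebellum and 341 to 468 CPM, median 371, in Gnb5-/- cerebellum. Mouse 12 was the highest and 383 CPM the next. For Neurod1 the log2 fold change came to 0.12 (SE 0.080, adjusted p = 0.58, edgeR), and 0.06 (SE 0.046) without mouse 12. Hippocampus, whose dentate granule neurons also use Neurod1, had 19.4 ± 0.589 CPM and cortex 10.9 ± 0.721 (SD, n = 6).

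En2, the Engrailed gene that stays on in adult granule cells, lies on chr5:28165694-28172166 (ENSMUSG00000039095) on the plus strand. Its level ran from 88.5 to 111 CPM, median 101, in Gnb5+/+ cerebellum and from 103 to 134, median 109, in Gnb5-/- cerebellum. All 6 Gnb5-/- mice were above the Gnb5+/+ mean, 2 of them above every Gnb5+/+ mouse. For En2 the log2 fold change came to 0.14 (SE 0.081, adjusted p = 0.58, edgeR), and 0.09 (SE 0.057) without mouse 12. En1, on chr1:120602418-120607992 (ENSMUSG00000058665) on the plus strand, was at 0.865 to 1.97 CPM in Gnb5+/+ and 0.738 to 3.19 CPM in Gnb5-/- cerebellum. At this level its log2 fold change, 0.39 (SE 0.32, adjusted p = 0.61, edgeR), has an interval from a 19.5% decrease to a 112% increase, and the difference was not detectable. Without mouse 12 it was 0.13 (SE 0.27).

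**Figure D2:**
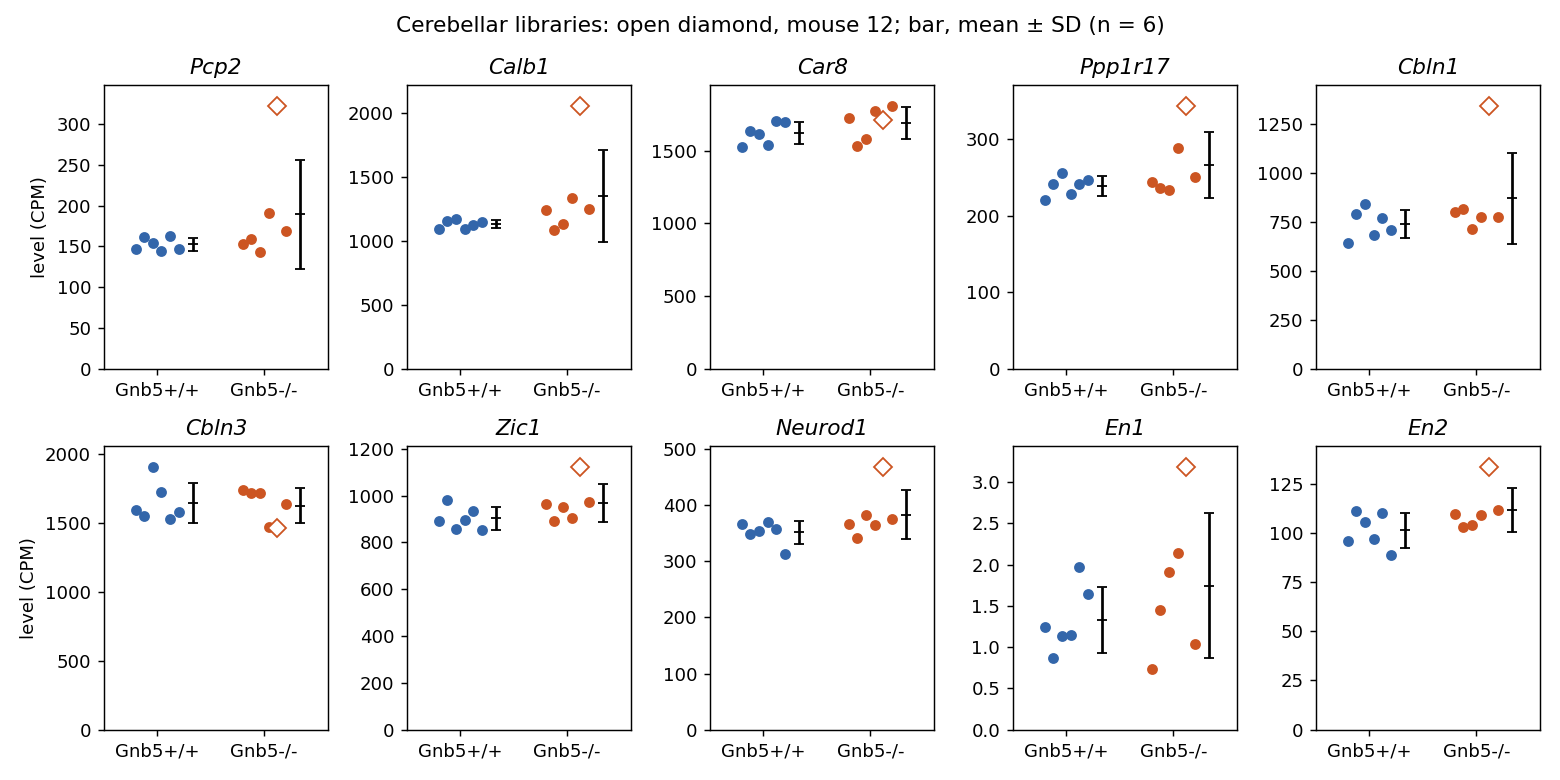
Level in CPM of each of the 10 genes in the 12 cerebellar libraries, with the mean and SD of each genotype (n = 6) beside the points. The open diamond is Gnb5-/- mouse 12, which is the highest of its group for Pcp2 at 322 CPM and the lowest for Cbln3 at 1463 CPM.

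Counted together, 0 of the 10 genes passed the threshold in Gnb5-/- against Gnb5+/+ cerebellum, where 14 of 17139 genes did (0.0817%), and 0 of 10 had an unadjusted p under 0.05, against 1003 genes in all. DESeq2 also called 0 of 10. The fold change was positive for 9 of the 10, with a median log2 value of 0.15 beside 0.00 over all genes tested. All 10 fits share the library of mouse 12. Without it the fold change was positive for 10 of 10 with a median of 0.07, and 0 of 10 passed, where 62 of 17255 genes did (0.359%). Standard errors fell in that fit, from between 0.067 and 0.32 to between 0.044 and 0.27. For the 9 genes other than En1, the intervals without mouse 12 lay between -7.99% and 17.4%. The exact permutation test over mice gave p under 0.05 for 0 of the 10, with values from 0.0628 to 0.799 (2-sided, 924 divisions, the smallest possible p being 0.00216). The groups overlapped for all 10 genes, while they did not for 1.1% of the genes tested.

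**Figure D3:**
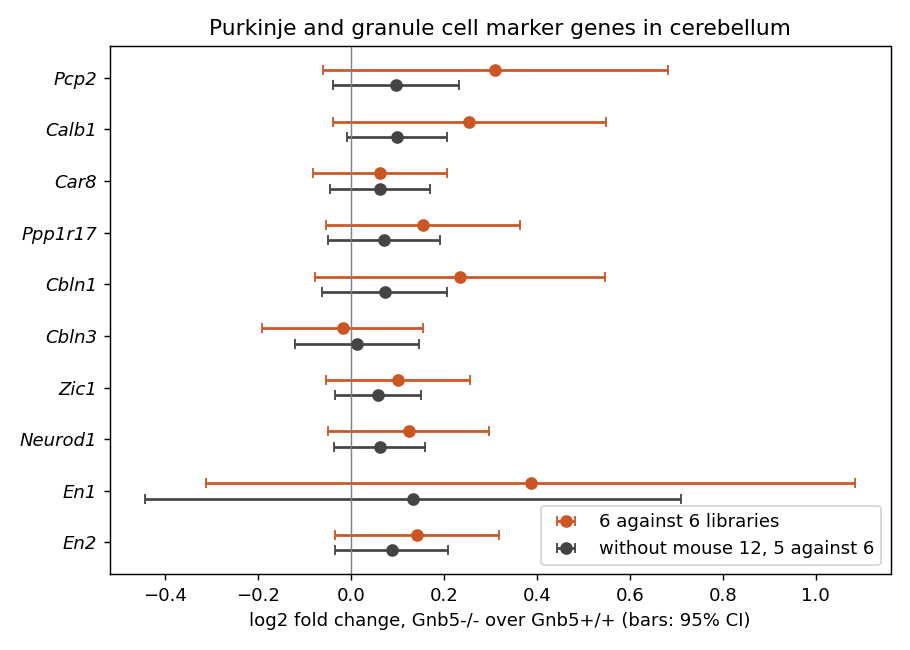
Fold change of the 10 genes in cerebellum on a log2 scale, Gnb5-/- over Gnb5+/+, with 95% confidence intervals from edgeR, for all 12 libraries and without mouse 12. Every interval includes 0, and all 10 estimates are smaller in size without mouse 12, that of Pcp2 going from 0.31 to 0.10 and that of Cbln3 changing sign from -0.02 to 0.01.

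The sum of the 4 Purkinje genes was 2984 to 3233 CPM in Gnb5+/+ and 3014 to 4428 CPM in Gnb5-/- cerebellum. That of the 4 granule genes was 3452 to 3957 and 3517 to 4394 CPM. Mouse 12 had the highest value of both sums. The ratio of the Purkinje to the granule sum ran from 0.809 to 0.936 in Gnb5+/+ and from 0.801 to 1.02 in Gnb5-/- mice, so the groups overlapped. The highest 2 ratios were those of Gnb5-/- mice 10 and 12.

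Pairs of the genes were compared by Pearson's r of their log2 CPM after subtraction of the genotype means. Over the 12 cerebellar libraries, r ranged from 0.30 to 0.96 for the 6 pairs of Purkinje genes, with a median of 0.70. The 6 pairs of granule genes ranged from -0.48 to 0.80 with a median of 0.19, and the 16 pairs of a Purkinje with a granule gene from -0.59 to 0.91 with a median of 0.55. Without mouse 12 the Purkinje pairs ranged from 0.60 to 0.85 with a median of 0.75, the granule pairs from -0.29 to 0.47 with a median of 0.10, and the mixed pairs from -0.57 to 0.50 with a median of -0.04. These coefficients are descriptions, since the genes share libraries and depth.

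By the same measure over the 12 libraries and 14431 genes, the genes most like each marker were Fars2 and Ube2r2 for Pcp2, Hnmt and Klk6 for Calb1, Aspn and Kitl for Car8, and Fam241a and Dap for Ppp1r17. For Cbln1 they were Them6 and Ier5, for Cbln3 Cd46 and Stx17, for Zic1 Gm26532 and Ube2k, for Neurod1 Cfl2 and Cited2, for En1 Pold2 and Tspan15, and for En2 Sumf2 and Jrkl. The coefficients lay between 0.85 and 0.99 with mouse 12 and between 0.79 and 0.95 without it.

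In the library of mouse 12, 8 of the 10 genes lay above the range of the 11 other cerebellar libraries, Cbln3 lay below it and Car8 within it. The share of all genes outside that range is not given here, so these counts describe the library only. The ratio to the median of the others was 2.55 for En1, 2.08 for Pcp2, 1.796 for Calb1, 1.73 for Cbln1 and 1.42 for Ppp1r17. En2, Neurod1 and Zic1 had ratios of 1.27, 1.28 and 1.24. The other markers of the same cells did not follow. Of 20 further Purkinje markers, 7 were above the range and 11 below it, and of 20 further granule markers 3 were above and 14 below. Pvalb, a calcium buffer of Purkinje cells and interneurons, was at 1706 CPM against a median of 378, Pcp4, a calmodulin regulator, at 170 against 51.0, and Gng13, a G protein gamma subunit, at 315 against 100. Itpr1, the IP3 receptor, was at 1998 CPM against 5117, and Fat2, an atypical cadherin of granule cells, at 395 against 1249.

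The deviations of mouse 12 followed transcript length. Among Purkinje and granule markers, the median ratio to the other libraries was 2.61 for 6 genes of principal transcripts up to 2 kb, 0.98 for 24 genes of 2 to 4 kb and 0.67 for 18 longer ones. Over 13123 protein-coding genes the median log2 difference was 1.53 for transcripts up to 1 kb and -1.19 for those over 8 kb, with a Spearman coefficient of -0.70 across genes, which are not independent replicates. Pcp2 has a principal transcript of 470 bases and Ppp1r17 of 1757, while that of Calb1 has 4222 and that of Zic1 5606 bases, so length did not order the 10 genes fully. Gnb5-/- mouse 10, which had the next highest Pcp2 and Calb1 levels, showed a coefficient of -0.43 and a median log2 difference of 0.15 for the shortest class. Gnb5-/- mouse 3 had -0.27 and 0.12, with the lowest sum of the Purkinje genes in its group, 3014 CPM. In Gnb5-/- mice 1, 5 and 14 the coefficients were 0.04, 0.02 and 0.12. The part of transcript length in the levels of the 10 genes was not tested.

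**Figure D4:**
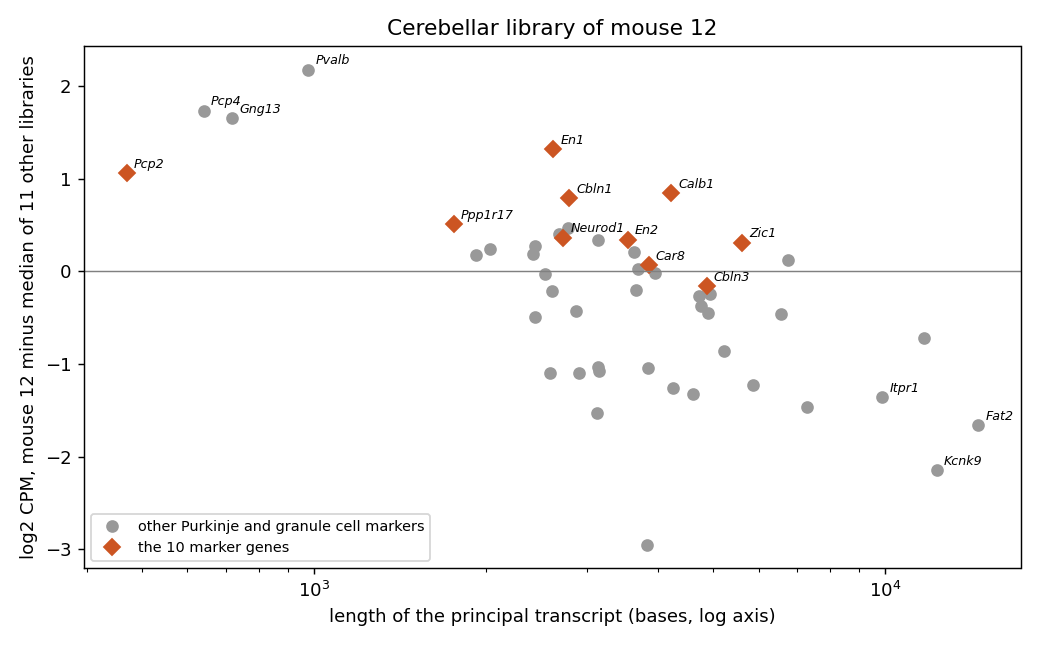
Difference in log2 CPM between the cerebellar library of Gnb5-/- mouse 12 and the median of the 11 others, against the length of the principal transcript in bases on a log axis. Each point is a Purkinje or granule cell marker or an Engrailed gene. Pcp2 at 470 bases is at 1.06 and Fat2 at 14528 bases is at -1.66.

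Markers of other tissues also moved in mouse 12. The summed level of 8 choroid plexus markers was 918 CPM there, against 14.02 to 21.7 in Gnb5+/+ and 14.8 to 22.3 in the other Gnb5-/- libraries, with Ttr alone at 871 CPM. The sum of 5 markers of the cerebellar nuclei was 74.6 CPM, against 10.1 to 27.9 in Gnb5+/+ and 6.17 to 14.2 in the other Gnb5-/- libraries. Sums of 10 oligodendrocyte, 8 microglial and 8 endothelial and blood markers were also highest in mouse 12, at 5757, 205 and 363 CPM. Those of 10 Bergmann glia and astrocyte markers and 10 forebrain markers were lowest there, at 3763 and 275 CPM. The sum of 11 cerebellar interneuron markers was 1630 CPM in mouse 12, within the range of the others. Of 12 midbrain and brainstem markers, 8 were at or under 3 counts in every Gnb5+/+ library, and their sum was 14.6 CPM in mouse 12 against 4.67 to 8.46 in all others. Among uniquely aligned reads, 8.02% overlapped no counted feature of a gene in this library. In the other cerebellar ones it was 14.02% to 16.97%. Such reads may lie in introns or between genes. The part of these markers and reads in the result was not tested.

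The wider lists of cerebellar genes held 0 called genes. Of 20 further Purkinje markers, all tested, 10 had a positive fold change and the median log2 value was 0.02. Examples of the highest level are Itpr1 (log2 fold change -0.19, SE 0.20), Aldoc, the zebrin glycolytic enzyme (0.05, SE 0.099), and Dner, a Notch ligand (0.12, SE 0.067). Of 20 further granule markers, 6 had a positive fold change and the median was -0.04, with Fat2 at -0.28 (SE 0.23), Chn2, a Rac regulator, at 0.05 (SE 0.065) and Gabra6, the GABA-A receptor subunit of granule cells, at -0.08 (SE 0.088). Without mouse 12, 16 of the 20 Purkinje and 12 of the 20 granule markers had a positive value, with medians of 0.05 and 0.02, and the lowest adjusted p was 0.06, for the potassium channel Kcnk9 (log2 fold change -0.29, SE 0.060). Counted with the other lists, 0 of 117 tested list genes passed the threshold either way, where 11 had an unadjusted p under 0.05 with and 25 without mouse 12. Over all genes tested these shares were 5.85% (1003 of 17139) and 11.7% (2014 of 17255).

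Binding partners and relatives of the 10 genes gave 0 of 15 called, with 3 at an unadjusted p under 0.05. Gnai2, a Gi alpha subunit of the class that Pcp2 binds, had the lowest p of them: its log2 fold change was 0.23 (SE 0.061, adjusted p = 0.58, edgeR), and 0.21 (SE 0.047, adjusted p = 0.10) without mouse 12. Gnao1 had -0.09 (SE 0.11), and Pvalb had 0.74 (SE 0.36), falling to 0.12 (SE 0.058) without mouse 12.

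Relatives of the 10 genes differed in where they were found. Cbln2 and Cbln4, the other cerebellins, were at 0.0643 ± 0.0393 and 0.348 ± 0.189 CPM in Gnb5+/+ cerebellum and at 34.9 ± 5.30 and 22.1 ± 2.21 CPM in cortex (SD, n = 6), the reverse of Cbln1 and Cbln3. Zic2, Zic4 and Zic5 had 169, 81.3 and 57.1 CPM in Gnb5+/+ cerebellum and at most 8.23 CPM on average in cortex and 6.78 in hippocampus. Neurod2 was at 98.9 ± 5.79 CPM in cerebellum and 109 ± 17.7 in hippocampus, without the cerebellar excess of Neurod1. Calb2, or calretinin, a calcium buffer of granule cells, was at 421 ± 30.4 CPM in Gnb5+/+ cerebellum. Its log2 fold change was 0.13 (SE 0.18) with mouse 12 and -0.11 (SE 0.070) without it. Zic4, which shares its locus with Zic1, was 77.6 to 88.2 CPM in Gnb5+/+ and 70.4 to 76.3 CPM in Gnb5-/- cerebellum. Its groups did not overlap, but the log2 fold change of -0.14 (SE 0.053) had an adjusted p = 0.58 (edgeR), and without mouse 12 it was -0.15 (SE 0.040, adjusted p = 0.18).

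Hippocampus and cortex gave the background for the knockout effect. Too few counts left Pcp2, Ppp1r17 and En1 untested in hippocampus, and 0 of the other 7 passed there, where 29 of 17588 genes did (0.165%). None of the 7 had an unadjusted p under 0.05. Their log2 fold changes ran from -0.36 for En2 (SE 0.27) to 0.09 for Neurod1 (SE 0.061), with a median of 0.04, and 4 of 7 were positive. In cortex Pcp2 and En1 were untested, and 0 of the other 8 passed, where 10 of 17967 genes did (0.0557%). All 8 had a positive log2 fold change in cortex, from 0.27 for Neurod1 (SE 0.14) to 2.66 for Cbln3 (SE 0.82), all with adjusted p = 0.47 (edgeR), and 4 of 8 had an unadjusted p under 0.05, beside 1327 of 17967 genes (7.39%). With all 36 brain libraries in 1 fit, Cbln3 passed in cortex (log2 fold change 2.68, adjusted p = 0.0158, edgeR). That fit had no term for the mouse, so it took the libraries of a mouse as independent.

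The largest of these cortical fold changes came with high levels in a few libraries. Cbln3 was at 14.6 CPM in Gnb5-/- mouse 3 and 9.74 CPM in Gnb5-/- mouse 1, and at 0.514 to 1.04 CPM in the 10 other cortical libraries. Ppp1r17 was at 2.68 and 1.15 CPM in mice 3 and 1, against 0.191 to 0.370 in the others, and Pcp2 at 1.19 and 0.461 CPM (51 and 18 counts), against 0 to 0.183. Gabra6 and Fat2, granule cell genes outside the 10, were also high in both, at 6.63 and 5.00 CPM and at 4.26 and 7.72 CPM. Expressed against the mean of Gnb5+/+ cerebellum, the excess over the cortical median of these 5 genes and En2 was 0.262% to 1.00% in mouse 3 and 0.263% to 0.557% in mouse 1. In the other cortical libraries it was at most 0.0809%. The hippocampal libraries of the same mice had at most 0.101% over the hippocampal median. Among all hippocampal libraries the largest value for a gene was 0.298%, in Gnb5+/+ mouse 17. The median over the genes was -0.0137% in that library, against 0.789% and 0.453% in cortex of mice 3 and 1.

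**Figure D5:**
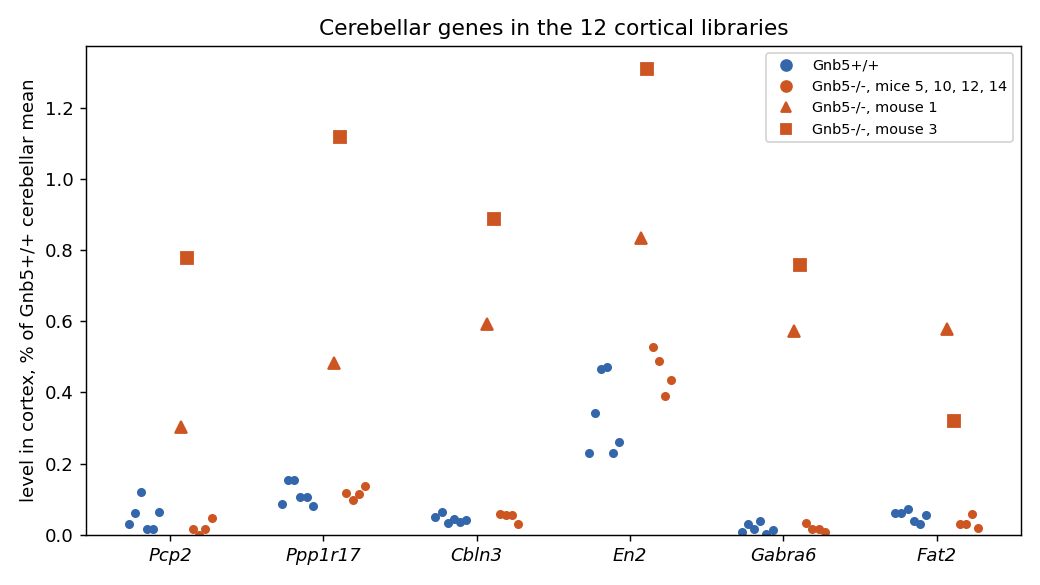
Level of 6 cerebellar genes in the 12 cortical libraries, as a percentage of the gene's mean in Gnb5+/+ cerebellum. The square and the triangle are Gnb5-/- mice 3 and 1, which lie above all others for Pcp2, Ppp1r17, Cbln3, En2, Gabra6 and Fat2, at 0.777% and 0.302% for Pcp2.

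Mouse 14 differed in another way in cortex. Its Calb1 level was 481 CPM, against 231 in mouse 3 and 136 to 169 CPM in the 10 others, and Neurod1 was at 18.1 CPM against 9.82 to 15.9. Its Pcp2 and Cbln3 levels, 0.0734 and 0.514 CPM, were in the range of Gnb5+/+ cortex or just below it. Its median log2 difference from Gnb5+/+ cortex was 1.91 for transcripts up to 1 kb and -1.09 for those over 8 kb. That of mouse 3 was 0.65 and -0.74. In mouse 14 it was -0.48 for transcripts of 4 to 6 kb, the class of Calb1. For those of 2 to 4 kb, the class of Neurod1, it was 0.05. Of uniquely aligned reads, 6.86% overlapped no counted feature of a gene in mouse 14, 8.32% in mouse 3 and 14.5% in mouse 1. In Gnb5+/+ cortex such reads made up 13.1% to 15.6%. The cortical libraries of mice 1, 3 and 14 were picked after their levels of these genes were seen. Smaller fold changes without them follow in part from that choice and are descriptions. Without mice 1 and 3 the log2 fold change of Cbln3 in cortex was 0.18 and that of Ppp1r17 0.02, and without mouse 14 as well that of Calb1 was -0.04. In both fits 0 of 8 passed. With all cortical libraries 10 of 17967 genes passed (0.0557%), so 0 of 8 is near the share over all genes.

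Cbln1 and En2 had an exact permutation p under 0.05 in cortex, 2 of 20 such tests in hippocampus and cortex. Cbln1 was at 6.79 to 9.88 CPM in Gnb5+/+ and 8.63 to 20.2 CPM in Gnb5-/- cortex, with 5 of 6 Gnb5-/- mice above all Gnb5+/+ mice (exact p = 0.00866, 2-sided). En2 was at 0.232 to 0.479 and 0.396 to 1.33 CPM (exact p = 0.0195). Without mice 1 and 3 the difference in mean log2 CPM was 0.27 for Cbln1 (exact p = 0.0429, 210 divisions) and 0.46 for En2 (exact p = 0.0810). Without mouse 14 as well, with 3 mice left against 6, it was 0.21 for Cbln1 (exact p = 0.143, 84 divisions) and 0.48 for En2 (exact p = 0.119). The mice left out were picked by their levels and fewer remained, so these values describe the remaining mice only.

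The knockout effect in cerebellum was also compared directly with that in the other regions, for the genes with enough counts to be tested in both. Pcp2 and En1, and in hippocampus Ppp1r17, entered this joint fit through their cerebellar counts and are not counted here. Against hippocampus, 0 of 7 genes passed the threshold, where 5 of 19388 genes did (0.0258%), and 0 of 7 had an unadjusted p under 0.05, beside 3.72% of all genes. The differences on the log2 scale ran from -0.02 for Cbln3 (SE 0.69) to 0.48 for En2 (SE 0.32), and for Calb1 the difference was 0.15 (SE 0.27). Without mouse 12 it was -0.06 for Calb1 (SE 0.23).

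Against cortex, 0 of 8 genes passed, where 2 of 19388 did (0.0103%). All 8 differences were negative, from -1.90 for Cbln3 (SE 0.68) to -0.13 for Neurod1 (SE 0.15), with an adjusted p = 1 in edgeR. Cbln3, En2 and Ppp1r17 had an unadjusted p under 0.05, 3 of 8 beside 3.72% of all genes. Without mouse 12 these 3 stood at -2.12 (SE 0.69), -1.01 (SE 0.31) and -1.49 (SE 0.52), Calb1 went from -0.20 to -0.41 and Cbln1 from -0.24 to -0.49, and the lowest adjusted p of the 8 was 0.40 (edgeR). Some signs changed when the cortical libraries named above, picked by their levels of these genes, were left out. Without mice 1, 3 and 14 in cortex, 3 of the 8 differences were negative, 0 of 8 had an unadjusted p under 0.05, beside 12.2% of all genes, and the values ran from -0.39 for Cbln3 (SE 0.28) to 0.32 for Calb1 (SE 0.16). Without mouse 12 in cerebellum as well, 4 of 8 were negative, with values from -0.51 for En2 (SE 0.29) to 0.09 for Ppp1r17 (SE 0.34). In that fit 0 of 8 passed, where 9 of 19926 genes did (0.0452%).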

How the data were processed

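Whole-transcriptome RNA-seq was made from 72 libraries of 18 mice, 6 per group in 12 groups of tissue and genotype. The authors trimmed reads with cutadapt 1.8, removed ribosomal reads, aligned to GRCm38 with STAR 2.5.3a and counted with HTSeq 0.9.1. They deposited raw read counts per gene, and the strand setting of the counting is not given in the sources used here. The 5 summary rows that name no gene were left out of library sizes.

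Genotypes were compared within each region with edgeR 4.0.16 (quasi-likelihood test, TMM, genes kept by a count minimum of 10) under R 4.3.3, with Benjamini-Hochberg adjustment over all genes at 0.05. Regions of Gnb5+/+ mice, and the difference in knockout effect between regions, were fitted with a term for each mouse, as every mouse gave all regions. Exact permutation tests used log2 CPM with a prior count of 2. DESeq2 1.42.0, other filters and scalings, and leaving out each library were alternatives. Confidence intervals are at 95%. Scripts were tested on simulated data. The named genes were the 10 markers, Gnb5, any listed gene called in cerebellum and otherwise the 3 of highest mean CPM per list, relatives of the markers, and the 2 genes most correlated with each marker. Other listed genes (Gnai2, Kcnk9, Pcp4, Gng13 and Ttr) were named after their values were seen. Some listed genes are not reported here. The members and lists were chosen with earlier results of these data known. Gene positions are from GENCODE M21, which matched 53620 of 53715 gene rows. Reads on genes ranged from 29204390 to 48807435 per library. Tests of genotype within a region set the difference against the spread between mice. Tests with a term for each mouse used the spread that remained within mice.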

Additional observations from a re-analysis of the deposited data

Results flagged for a closer look

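For each of the 10 genes, each group of 6 brain libraries was searched for a single library far from the rest. Such a library was found in 10 of 60 cases. The genes share libraries, so the cases are not independent and are not set against a chance rate. Of these 10, 6 were the cerebellar library of Gnb5-/- mouse 12. It was the highest of its group for Pcp2 at 322 CPM, with the next at 191, and for Calb1 at 2052 CPM, with the next at 1333. It was also highest for Cbln1 at 1340 CPM (next 813), Zic1 at 1123 CPM (next 973), Neurod1 at 468 CPM (next 383) and En2 at 134 CPM (next 111). In Gnb5-/- cortex, mouse 14 had 481 CPM of Calb1, with the next at 231, and mouse 3 had 20.2 CPM of Cbln1, with the next at 11.8. En1 stood out in hippocampus of Gnb5+/+ mouse 15 at 0.0664 CPM and in cortex of Gnb5+/+ mouse 18 at 0.0718 CPM, levels of a few counts.

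Some of the 10 genes were above the limit that a count of 0 allows, 3 counts, in every one of 18 heart libraries per tissue, which the comparisons above do not use. Car8 had a median of 20.6 CPM in atria (16.2 to 25.8) and 17.6 CPM in ventricles (15.2 to 22.2). Cbln1 had 1.81 CPM in atria (0.656 to 3.19) and 0.566 CPM in ventricles (0.256 to 0.885). Cbln3 had 0.697 CPM in atria (0.316 to 1.15).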

How the results depend on the processing

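In cerebellum 0 of the 10 genes passed under any alternative, and all 10 stayed higher than in hippocampus and cortex. The sign changed only for Cbln3 in cerebellum, to 0.01 without mouse 12 (0.0098 in DESeq2, 0.012 as a mean log2 difference) and between -0.041 and 0.028 with 1 library left out. In hippocampus, with 1 library left out, Cbln1 ran from -0.13 to 0.18, Cbln3 from -0.050 to 0.26 and Zic1 from -0.23 to 0.055. Without cortical mice 1, 3 and 14, Calb1 was -0.037, Ppp1r17 -0.060 and Zic1 -0.080 in cortex. Without mouse 12 the difference from the hippocampal effect was -0.063 for Calb1, -0.0030 for Cbln1 and -0.072 for Neurod1. It was -0.12 for Ppp1r17, which was untested in hippocampus alone and entered the joint fit through its cerebellar counts. In alternatives added after seeing the data, without cortical mice 1, 3 and 14, the difference from the cortical effect became 2.53 for Pcp2 (untested in cortex alone), 0.32 for Calb1, 0.024 for Car8, 0.29 for Ppp1r17, 0.14 for Zic1, 0.15 for Neurod1 and 0.76 for En1 (also untested in cortex alone). Without cerebellar mouse 12 as well it was 0.078 for Calb1, 0.093 for Ppp1r17, 0.046 for Zic1 and 0.039 for Neurod1. For Pcp2 and En1, again untested in cortex alone, it was 1.72 and 0.16. The difference from the hippocampal effect was then -0.022 for Calb1 and -0.046 for Neurod1, and -0.048 for Ppp1r17, untested in hippocampus alone. With all 36 libraries in 1 fit without a term for the mouse, 1 of the 10 passed in cortex (Cbln3). The count of exact tests under 0.05 in cortex went from 2 to 1 without mice 1 and 3, and to 0 without mouse 14 as well. The cause of these changes was not tested.

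Counts over all genes depended more on the setting. In cerebellum 14 genes were called, against 49 with DESeq2, 196 with DESeq2 without mouse 12, 42 with 36 libraries and 9 to 62 with 1 library left out (62 without mouse 12, 30 without Gnb5+/+ mouse 15). In hippocampus 29 were called, against 104 with DESeq2 and 21 to 37. In cortex 10 were called, against 25 with DESeq2, 33 with 36 libraries, 6 with 10 counts in every library, 16 without mice 1, 3 and 14, and 8 to 22.

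With the replicate number as a block, 5 genes were called in cerebellum, 19 in hippocampus and 6 in cortex, 0 of the 10 among them, and Cbln1 in hippocampus was -0.027. Numbers did not pair the mice: deviations of same-numbered mice correlated between -0.29 and 0.08 in cerebellum, with 1 of 6 best with its own number, between -0.22 and 0.06 in hippocampus and between -0.18 and 0.06 in cortex, with 0 of 6 in each. Leaving out the mouse block where the same mice were compared changed no call among the 10. En1, near 1 CPM, is limited by its low counts.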
